A study of Homo sapiens with 12 samples.

Results

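Genes of the amino acid and stress response driven by the transcription factor ATF4 were followed in DU145, an established human prostate cancer cell line: NUPR1, ASNS, TRIB3, PPP1R15A, STC2 and SESN2. They were picked by symbol after their values in the same RNA-seq libraries had been seen, so their own values are given as a description, without a test. The series deposited 2 tables of genes that its authors had called changed. The first, with 1810 genes, held 5 of the 6 genes and the second, with 1424 genes, held 4. TRIB3, PPP1R15A and STC2 were in both tables, NUPR1 and ASNS had a row only in the first, and SESN2 had one only in the second. A gene without a row could not be assessed.

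The first table set 3 libraries of DU145 cells with the genotype label WT treated with RSL3 for 24 h against 3 libraries of the same cells given DMSO, the vehicle. RSL3 is a covalent inhibitor of GPX4, the enzyme that removes lipid peroxides, and it triggers the iron-dependent form of cell death called ferroptosis. The labels give no dose. The second table set 3 libraries of DU145 cells overexpressing the basic helix-loop-helix transcription factor ATOH8 (oeATOH8) against 3 libraries labelled as the overexpression control (oeCTRL). These libraries carry no treatment label, and the vector and whether the cells were a pool or a clone are not given in the sources used here. As a check of the second comparison, ATOH8 had 76508, 72569 and 76043 reads in oeATOH8 libraries, against 13, 10 and 4 in oeCTRL libraries. Over the listed genes the libraries held 2523743 to 3096832 reads in the first table and 1508188 to 2226518 in the second, which are sums over called genes and not library depths.

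ATF4 is made when a kinase phosphorylates the translation initiation factor eIF2α, as happens during amino acid shortage, endoplasmic reticulum stress, oxidative stress or viral RNA sensing. General protein synthesis then falls while ATF4 itself is translated. ATF4 pairs with C/EBP factors on the C/EBP-ATF response element and raises genes for amino acid synthesis, amino acid import and aminoacyl-tRNA charging, together with genes that feed back on the pathway. In ferroptosis the response is known for its tie to cystine supply, since the cystine carrier is one of its targets.

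The 250 bases before the annotated start were read from RefSeq (GRCh38.p14) for the 5 genes that the promoter table holds, because the genes were described together and the response element of this pathway is known in the promoter of ASNS. The NUPR1 promoter is not shown. Each sequence runs 5′ to 3′ on the strand of its gene. Capitals mark the matches to 3 motifs searched on both strands, and none of these matches overlapped another.
ASNS: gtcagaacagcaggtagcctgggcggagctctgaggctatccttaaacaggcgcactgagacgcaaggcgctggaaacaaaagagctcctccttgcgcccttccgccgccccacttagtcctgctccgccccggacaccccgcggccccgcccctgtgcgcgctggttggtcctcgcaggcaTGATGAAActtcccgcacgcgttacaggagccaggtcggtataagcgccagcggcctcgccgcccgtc
PPP1R15A: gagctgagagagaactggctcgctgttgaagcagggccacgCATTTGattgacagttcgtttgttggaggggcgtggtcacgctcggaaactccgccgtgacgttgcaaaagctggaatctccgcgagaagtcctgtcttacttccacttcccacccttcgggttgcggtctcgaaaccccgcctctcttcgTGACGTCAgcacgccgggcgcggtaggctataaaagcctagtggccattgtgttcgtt
STC2: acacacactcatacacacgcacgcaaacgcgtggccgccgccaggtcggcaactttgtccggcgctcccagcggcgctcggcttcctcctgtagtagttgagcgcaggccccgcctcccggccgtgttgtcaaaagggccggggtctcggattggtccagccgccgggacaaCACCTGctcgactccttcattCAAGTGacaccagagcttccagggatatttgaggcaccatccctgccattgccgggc
TRIB3: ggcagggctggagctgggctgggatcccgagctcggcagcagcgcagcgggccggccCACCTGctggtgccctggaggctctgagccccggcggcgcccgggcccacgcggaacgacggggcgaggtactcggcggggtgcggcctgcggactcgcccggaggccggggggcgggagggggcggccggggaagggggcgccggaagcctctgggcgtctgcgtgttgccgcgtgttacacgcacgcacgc
SESN2: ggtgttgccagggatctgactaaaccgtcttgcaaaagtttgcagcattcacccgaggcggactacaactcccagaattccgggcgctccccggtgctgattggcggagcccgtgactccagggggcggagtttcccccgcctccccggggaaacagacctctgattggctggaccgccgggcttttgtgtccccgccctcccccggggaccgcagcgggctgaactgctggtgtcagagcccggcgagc
The windows were chr7:97872409-97872658 on the minus strand, chr19:48872171-48872420 on the plus strand, chr5:173328415-173328664 on the minus strand, chr20:381045-381294 on the plus strand and chr1:28259268-28259517 on the plus strand. In ASNS the capitals are TGATGAAA, a match to TGATGNAA, the core of the C/EBP-ATF response element, from 68 to 61 bases before the start. Of 35116 RefSeq promoter windows of this length, 3.14% held TGATGNAA. In PPP1R15A the 8 capitals are TGACGTCA, the cyclic AMP response element bound by CREB and ATF factors, from 58 to 51 bases before the start, a motif held by 1.65% of the windows. The 6-base capitals in PPP1R15A, STC2 and TRIB3 are E-boxes (CANNTG), the motif of basic helix-loop-helix factors, the family of ATOH8, and 61.8% of all windows held one. The STC2 window held 2 of them and the SESN2 window none. ASNS has 2 annotated starts in RefSeq and TRIB3 has 3, and the first of each is shown. The window of the other ASNS start held no TGATGNAA. A match is a string of letters and not a measured binding site.

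RSL3 was set against its vehicle to find regulators of ferroptosis. After 24 h, the 5 listed stress genes had higher means in RSL3 libraries, with ratios of means from 22.0 for NUPR1 through 2.33 for TRIB3, 2.15 for ASNS and 1.98 for PPP1R15A down to 1.37 for STC2. Replicate 1 gave the largest ratio for each gene. In bulk RNA, fewer cells of a kind and less RNA per cell cannot be told apart.

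NUPR1, a small chromatin-associated protein induced by many stresses, stood at the top of the 5 genes by fold in the RSL3 table (chromosome 16, 28532708 to 28538974, minus strand, GRCh38). Its normalised read counts, which are reads divided by the authors' size factor for the library, were 1251, 199 and 185 in RSL3 replicates 1, 2 and 3, against 34.1, 29.0 and 11.3 in DMSO replicates 1, 2 and 3. These values rest on 864, 212 and 197 reads with RSL3 and on 31, 38 and 13 reads with DMSO. Every RSL3 library was above every DMSO library, and RSL3 replicate 1 was far above the other RSL3 libraries. The ratio of group means was 22.0, with 545 ± 612 in RSL3 and 24.8 ± 11.9 in DMSO (SD, n = 3 each). The fitted log2 fold change on the log2(value + 1) scale was 3.94 (SE 0.76). Within replicate 1 the ratio was 36.7, and over replicates 2 and 3 it was 9.51.

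ASNS, the enzyme that makes asparagine from aspartate and glutamine, had 2929, 2261 and 2321 normalised reads in RSL3 libraries, against 677, 1401 and 1414 in DMSO libraries (chromosome 7, 97851677 to 97928441, minus strand). Replicate 1 was the highest RSL3 library and the lowest DMSO library, and the groups did not overlap. Means were 2504 ± 370 in RSL3 and 1164 ± 422 in DMSO (SD, n = 3 each), a ratio of 2.15 and a fitted log2 fold change of 1.17 (SE 0.31). The ratio was 4.33 within replicate 1 and 1.63 over replicates 2 and 3. The readthrough gene CZ1P-ASNS, which shares sequence with ASNS, had the nearest profile of all genes to it, so reads of the 2 rows may be the same and the level of ASNS alone is uncertain.

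TRIB3, a pseudokinase that binds ATF4 and AKT and damps the response, had 8718, 2789 and 2714 normalised reads in RSL3 libraries, against 2105, 2013 and 1982 in DMSO libraries (chromosome 20, 380760 to 397559, plus strand). The DMSO libraries were close to each other, and RSL3 replicate 1 alone carried most of the difference in means. The ratio of means was 2.33, with 4740.3 ± 3445 in RSL3 and 2033 ± 63.7 in DMSO (SD, n = 3 each). It was 1.35 without RSL3 replicate 1. The fitted log2 fold change was 0.99 (SE 0.43), and the ratio was 4.14 within replicate 1 and 1.38 over replicates 2 and 3.

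PPP1R15A, also called GADD34, is the subunit that directs protein phosphatase 1 to eIF2α and so restores protein synthesis. It had 2961, 1499 and 1472 normalised reads in RSL3 libraries, against 906, 1071 and 1016 in DMSO libraries (chromosome 19, 48872421 to 48876058, plus strand). All RSL3 libraries were above all DMSO libraries, with replicate 1 again the highest of its RSL3 group and the lowest of its DMSO group. Means were 1977 ± 852 in RSL3 and 998 ± 84.3 in DMSO (SD, n = 3 each), a ratio of 1.98 and a fitted log2 fold change of 0.91 (SE 0.29). The ratio was 3.27 within replicate 1 and 1.42 over replicates 2 and 3.

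STC2, a secreted glycoprotein hormone induced by endoplasmic reticulum stress, had 2782, 2284 and 2191 normalised reads in RSL3 libraries, against 1660, 1844 and 1806 in DMSO libraries (chromosome 5, 173314723 to 173328414, minus strand). It had the smallest difference of the 5 genes, with no overlap between the groups. Means were 2419 ± 317 in RSL3 and 1770 ± 97.3 in DMSO (SD, n = 3 each), a ratio of 1.37 and a fitted log2 fold change of 0.44 (SE 0.17). The smallest log2 ratio of means of any gene higher in that table was 0.34. The STC2 log2 fold change was -0.029 when libraries were scaled to their totals over listed genes. All 5 genes had RSL3 libraries above all DMSO libraries, as did 49.4% of the 1732 listed genes that passed the filter on low counts. Since the genes were chosen on this contrast, nothing is read from that count.

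**Figure D1:**
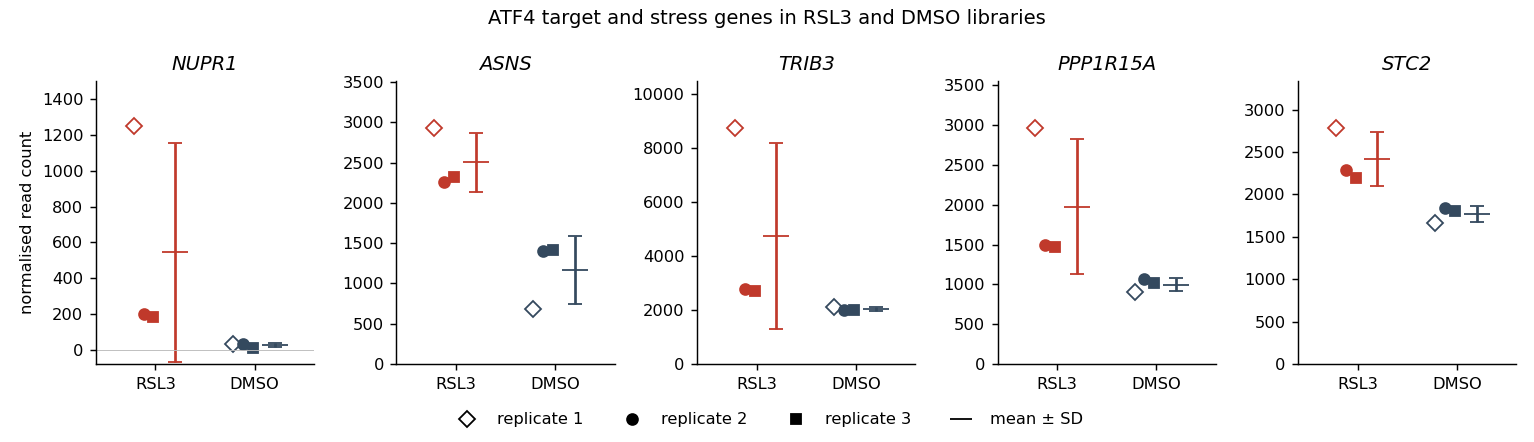
Normalised read counts (vertical axes, one scale per gene) of NUPR1, ASNS, TRIB3, PPP1R15A and STC2 in the 3 RSL3 and 3 DMSO libraries. Points are libraries, with replicate 1 as an open diamond, and bars are the mean ± SD of each group. RSL3 replicate 1 is the highest library for each gene, at 1251 for NUPR1 and 8718 for TRIB3, while replicates 2 and 3 nearly coincide.

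Replicate 1 stood apart in both groups of the RSL3 table. The chi-square of recovered reads, divided by its degrees of freedom, was 1.80 between RSL3 replicates 2 and 3 and 1.64 between DMSO replicates 2 and 3. Pairs that held replicate 1 had values of 59.1 to 101, and a value of 1 would be counting error. The labels do not say whether replicates were separate cultures. The ratio of RSL3 to DMSO was larger in replicate 1 than in replicates 2 and 3 for all 5 genes. The same held for 73.1% of the 821 genes higher with RSL3 that had a mean of at least 50. RSL3 replicate 1 was above the mean of the other RSL3 libraries for all 5 genes and for 89.8% of those 821. DMSO replicate 1 was above the mean of the other DMSO libraries for 2 of the 5 (NUPR1 and TRIB3), against 87.8% of the 821. The median log2 ratio of the 5 genes was 2.05 in replicate 1 and 0.51 over replicates 2 and 3, against 0.86 and 0.66 for the 821 genes. The longest annotated transcripts had a GC content of 60.9% for TRIB3, 58.8% for PPP1R15A, 51.7% for STC2, 50.3% for NUPR1 and 47.0% for ASNS. The medians were 58.1% over 800 higher genes and 48.7% over 559 lower genes. After a linear trend on transcript GC and length was taken out, a setting chosen after seeing the data, the log2 fold changes were 4.32 for NUPR1, 1.52 for ASNS, 0.51 for TRIB3, 0.54 for PPP1R15A and 0.74 for STC2.

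The other genes of the response gave 19 rows in the RSL3 table out of 51 on a list of ATF4 targets and regulators drawn up for this work. By limma over all listed genes with an adjusted p under 0.05, 11 rose and 1 fell, and the other 7 did not pass. The share of all tested genes that passed was 43.1% on the higher side and 38.9% on the lower side, or 82% in all. The 19 genes had a median log2 fold change of 0.95, against 0.51 over all 1732 genes tested. That 0.51 takes in higher and lower genes, and the median of the higher ones was 0.76. Without RSL3 replicate 1 the medians of the 19 and of all tested genes were 0.42 and 0.35. In replicates 2 and 3 alone they were 0.60 and 0.43. The median log2 ratio of the 19 was 1.46 in replicate 1 and 0.60 over replicates 2 and 3. The 821 higher genes with a mean of at least 50 had 0.86 and 0.66. The replicate numbers were taken to pair the libraries in this table, although they mainly set replicate 1 apart from the others. With the replicate number as a block all 19 passed, 18 higher and 1 lower, as did 1720 of the 1732 genes tested. The SEs and adjusted p-values given for single genes with RSL3 come from fits without this block, unless the block is named. Without the block, the count for the list rested on single libraries, as did the count over all tested genes. For the list it was 0 without DMSO replicate 2 and 0 without DMSO replicate 3 by limma, with 8 genes at an unadjusted p under 0.05 in each case. It was 2 without RSL3 replicate 2 and 1 without RSL3 replicate 3. Over all 1732 tested genes the counts in these settings were 6, 8, 330 and 310. The list count was also 2 with libraries scaled to listed totals and 6 with TMM scaling, where 636 and 926 of all tested genes passed. Both scalings take the called genes as unchanged on balance. With the GC and length trend removed 6 of the 19 passed, PSPH among them, and 7 of the 12 calls were lost (ADM2, EIF4EBP1, PYCR1, SLC43A1, SLC6A9, SLC7A5 and VEGFA). In that setting 664 of the 1660 tested genes with a GC value passed.

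Amino acid carriers had 6 of 10 genes in the RSL3 table, all with higher means, of which 5 passed. SLC3A2, the heavy chain that the cystine carrier and the large neutral amino acid carrier share, had 35013, 9582 and 9647 normalised reads in RSL3 libraries, against 6086, 4675 and 4789.9 in DMSO libraries. Its log2 fold change was 1.52 (SE 0.48, limma adjusted p = 0.0365), and the ratio of means was 3.49, or 1.85 without RSL3 replicate 1. SLC7A5, the light chain that imports leucine with SLC3A2, rose by 1.07 on the log2 scale (adjusted p = 0.0383, limma). The neutral amino acid carrier SLC1A4 rose by 1.05 (adjusted p = 0.0363), the glycine carrier SLC6A9 by 1.08 (adjusted p = 0.0425) and the leucine carrier SLC43A1 by 1.29 (adjusted p = 0.0407). SLC1A5, the glutamine and neutral amino acid carrier, had a log2 fold change of 1.01 (SE 0.45) and missed the threshold (adjusted p = 0.0626). Without RSL3 replicate 1 the ratios of means were 1.33 for SLC1A5, 1.498 for SLC6A9 and 1.69 for SLC43A1, where all libraries gave 2.39, 2.37 and 2.72. SLC1A5 then passed (limma adjusted p = 0.0418) and SLC43A1 did not (limma adjusted p = 0.0555). With the GC and length trend removed, SLC3A2 and SLC1A4 passed (limma adjusted p = 0.0488 and 0.0263), and SLC7A5, SLC6A9 and SLC43A1 did not (limma adjusted p = 0.06003, 0.0870 and 0.0656). The cystine light chain SLC7A11 had no row in the table.

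Amino acid synthesis had 5 of its 11 other genes in the table, all with higher means, and 2 passed. PHGDH, the first enzyme of serine synthesis, had 19246, 7471 and 7407 normalised reads in RSL3 libraries, against 4687, 4832 and 4819 in DMSO libraries. It rose by 1.10 on the log2 scale (SE 0.37, limma adjusted p = 0.0391), and its ratio of means was 2.38, or 1.56 without RSL3 replicate 1. PYCR1, which makes proline, rose by 1.01 (SE 0.29, adjusted p = 0.0320), and stood at 0.39 with the GC and length trend removed, where it did not pass (limma adjusted p = 0.0766). The serine enzyme PSPH, the glycine enzyme SHMT2 and the alanine enzyme GPT2 had log2 fold changes of 0.47, 0.69 and 0.71 and missed the threshold (adjusted p = 0.0542, 0.0516 and 0.0761). Of the aminoacyl-tRNA synthetases, which load amino acids onto tRNA, 4 of 13 list genes were in the table. SARS1 (0.48, adjusted p = 0.0407) and WARS1 (0.46, adjusted p = 0.0489) rose, and AARS1 (0.63, adjusted p = 0.0505) and MARS1 (0.53, adjusted p = 0.0516) did not pass. With libraries scaled to listed totals, PSPH was at -0.0073 and WARS1 at -0.010.

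The remaining targets in the RSL3 table were 4. ADM2, a peptide hormone, rose by 0.97 on the log2 scale (SE 0.33, limma adjusted p = 0.0400), and stood at 0.49 with the GC and length trend removed, where it did not pass (limma adjusted p = 0.113). EIF4EBP1, which holds back cap-dependent translation, rose by 0.95 (SE 0.31, adjusted p = 0.0371), and stood at -0.061 with the GC and length trend removed. VEGFA, the angiogenic factor that hypoxia also induces, fell by 0.90 (SE 0.25, adjusted p = 0.0298), with 3262, 1930 and 1956 normalised reads in RSL3 libraries, against 5031, 4025 and 3971 in DMSO libraries. With the GC and length trend removed VEGFA was at -0.57 and did not pass (limma adjusted p = 0.182). CEBPB, a C/EBP partner of ATF4, had 7496, 4371 and 4575 in RSL3 libraries, against 4505, 3024 and 2887 in DMSO libraries. The groups overlapped for CEBPB, its log2 fold change of 0.64 missed the threshold (adjusted p = 0.0558), and it was -0.23 with the GC and length trend removed. No gene of the eIF2α kinase and phosphatase list and none of the 15 genes of the ATF6 and XBP1 arms of the unfolded protein response was in either table, except the kinase EIF2AK2 in the oeATOH8 table.

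**Figure D2:**
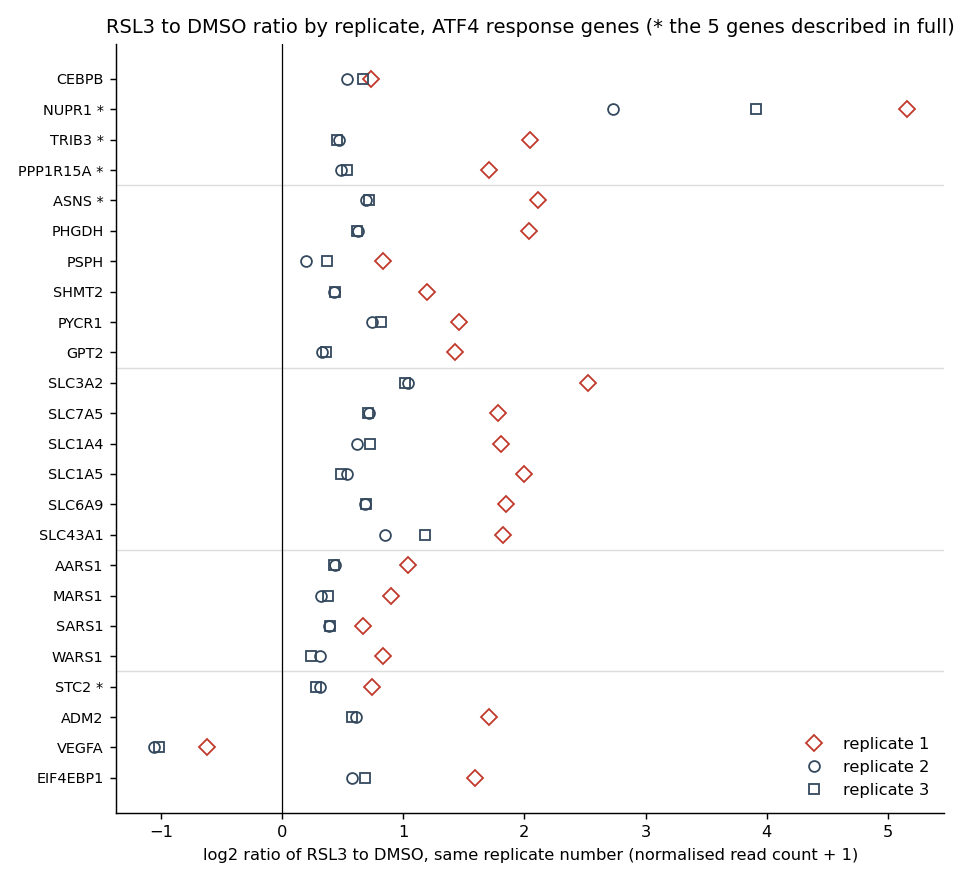
The log2 ratio of RSL3 to DMSO within each replicate number (horizontal axis, normalised read count + 1) for the ATF4 response genes in the RSL3 table, grouped by role with lines between groups. Red diamonds are replicate 1, circles and squares replicates 2 and 3. For all 24 genes the replicate 1 ratio lies to the right of the others, with NUPR1 the farthest right and VEGFA the only gene left of 0. The horizontal place depends on the authors' size factors. With libraries scaled to listed totals, the log2 fold changes fitted over all replicates were just below 0 for STC2 (-0.029), PSPH (-0.0073) and WARS1 (-0.010).

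In the comparison of oeATOH8 with oeCTRL, TRIB3, PPP1R15A, STC2 and SESN2 were higher in oeATOH8 libraries, with ratios of scaled means from 2.09 for TRIB3 to 2.75 for PPP1R15A. TRIB3 had 21203, 20561 and 22863 reads in oeATOH8 libraries, against 10804, 9871 and 9582 in oeCTRL libraries. Libraries were scaled by median ratios within a group, and the groups so that the empty gap in log2 ratios was centred on 0. The scaled means of TRIB3 were 21303 ± 799 in oeATOH8 and 10183 ± 313 in oeCTRL (SD, n = 3 each), a ratio of 2.09 that depends on this scaling. The fitted log2 fold change from edgeR was 1.06 (SE 0.044). The 3 libraries of each group lay close together, and the gap between groups was many times their spread.

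PPP1R15A had 14258, 13749 and 12680 reads in oeATOH8 libraries, against 4743, 4765 and 4960 in oeCTRL libraries. Its scaled means were 13428 ± 982 in oeATOH8 and 4878 ± 255 in oeCTRL (SD, n = 3 each), a ratio of 2.75 and the largest of the 4 genes, with a log2 fold change of 1.46 (SE 0.065). STC2 had 40549, 39467 and 42128 reads in oeATOH8 libraries, against 17124, 16796 and 17440 in oeCTRL libraries. The scaled means were 40274 ± 748 in oeATOH8 and 17310 ± 668 in oeCTRL (SD, n = 3 each), a ratio of 2.33 and a log2 fold change of 1.22 (SE 0.036). No library of either group came near the other group for these genes.

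SESN2, a sestrin that senses leucine and holds back the growth kinase complex mTORC1, is in the annotation at chromosome 1, 28259527 to 28282491, plus strand (GENCODE 29, GRCh38). It had 5867, 5517 and 6094 reads in oeATOH8 libraries, against 2744, 2436 and 2442 in oeCTRL libraries. The scaled means were 5761 ± 133 in oeATOH8 and 2565 ± 83.8 in oeCTRL (SD, n = 3 each), a ratio of 2.25 and a log2 fold change of 1.17 (SE 0.061). All 4 genes had oeATOH8 libraries above all oeCTRL libraries, as did 41.4% of the 1424 listed genes. Nothing is read from that count, because genes with small differences have no row there. The log2 fold changes of the 4 genes ranged from 0.61 for TRIB3 with libraries scaled to listed totals to 2.37 for PPP1R15A with relative log expression scaling. GC content was 60.9% for TRIB3, 58.8% for PPP1R15A, 51.7% for STC2 and 59.5% for SESN2, against medians of 59.1% over 447 higher genes and 50.1% over 612 lower genes. With the GC and length trend removed the log2 fold changes were 0.66, 1.11, 1.67 and 1.02 for TRIB3, PPP1R15A, STC2 and SESN2.

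**Figure D3:**
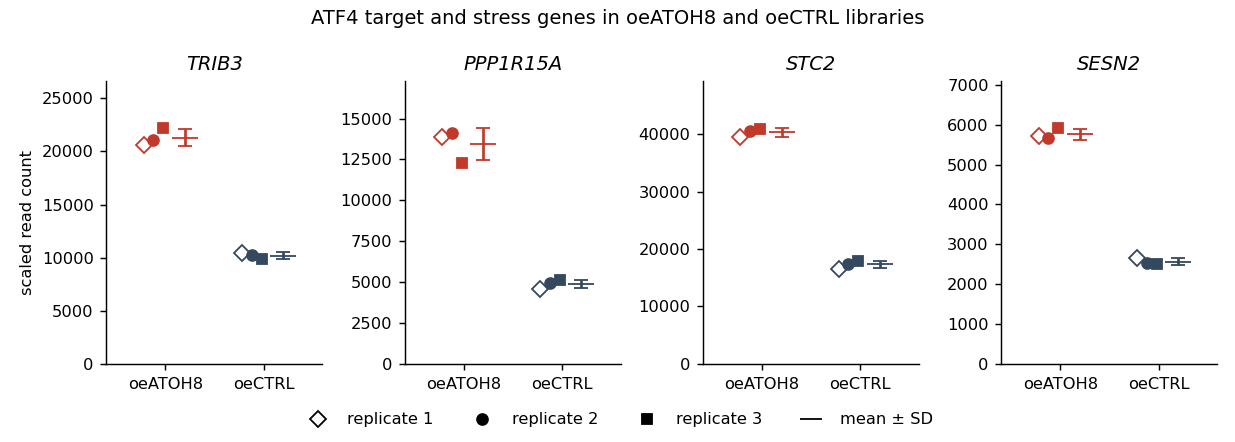
Scaled read counts (vertical axes, one scale per gene) of TRIB3, PPP1R15A, STC2 and SESN2 in the 3 oeATOH8 and 3 oeCTRL libraries. Points are libraries, with replicate 1 as an open diamond, and bars are the mean ± SD of each group. The libraries of a group lie close together, as for SESN2 at 5761 ± 133 in oeATOH8 and 2565 ± 83.8 in oeCTRL.

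Of the 51 other genes of the ATF4 list, 3 were in the oeATOH8 table, and all 3 rose by edgeR, as 100% of the 1424 listed genes passed, 41.4% higher and 58.6% lower. EIF4EBP1 rose by 1.62 on the log2 scale (SE 0.074, adjusted p = 4.75e-09, edgeR), with 7223, 6620 and 6186 reads in oeATOH8 libraries, against 2203, 2166 and 2007 in oeCTRL libraries. SLC43A1 rose by 1.29 (SE 0.13, adjusted p = 2.53e-06, edgeR) and CEBPB by 1.01 (SE 0.079, adjusted p = 2.56e-07, edgeR). With the GC and length trend removed EIF4EBP1 was at 0.46, SLC43A1 at 1.02 and CEBPB at 0.24. All 3 still passed in a limma fit, as did 1008 of the 1152 listed genes with a GC value. No gene of amino acid synthesis and no aminoacyl-tRNA synthetase of the list had a row there, where the RSL3 table had 6 and 4. Because each table holds called genes only, under limits that may differ, these counts do not compare the 2 responses.

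Of 8 close relatives of the 6 genes, 4 were in the oeATOH8 table, where SESN1, SESN3 and TRIB1 fell and STC1 rose. SESN1, the sestrin best known as a p53 target, had 160, 124 and 165 reads in oeATOH8 libraries, against 424, 315 and 307 in oeCTRL libraries, and fell by 1.25 on the log2 scale (SE 0.18, edgeR adjusted p = 4.02e-05). SESN3, a sestrin induced by FOXO factors, had 667, 643 and 694 reads in oeATOH8 libraries, against 1453, 1401 and 1212 in oeCTRL libraries. SESN3 fell by 1.05 (SE 0.081, edgeR adjusted p = 2.42e-07), but its log2 fold change was 0.37 with the GC and length trend removed. With relative log expression scaling SESN1 and SESN3 were at -0.34 and -0.14 and no longer passed (edgeR adjusted p = 0.106 and 0.154). TRIB1, a pseudokinase that steers C/EBPα to degradation, had 475, 413 and 462 reads in oeATOH8 libraries, against 1124, 1090.0 and 1080.0 in oeCTRL libraries, and fell by 1.32 (SE 0.079, edgeR adjusted p = 3.22e-08). TRIB2 had no row. STC1, the other stanniocalcin, rose together with STC2, by 1.30 (SE 0.080, edgeR adjusted p = 4.05e-08), with 4420, 4237 and 4052 reads in oeATOH8 libraries, against 1689, 1561 and 1819 in oeCTRL libraries.

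STC1 lay on the other side of 0 in the RSL3 table, where STC2 was higher. It had 37.6, 61.0 and 77.9 normalised reads in RSL3 libraries, against 95.6, 211 and 214 in DMSO libraries, and fell by 1.51 on the log2 scale (SE 0.41, limma adjusted p = 0.0288). All RSL3 libraries were below all DMSO libraries for STC1. The STC1 call was lost without DMSO replicate 2, DMSO replicate 3 or RSL3 replicate 2 (limma adjusted p = 0.104, 0.108 and 0.0538). STC1 was also 0.28 times its DMSO mean without DMSO replicate 1 and 0.40 times without RSL3 replicate 1. ASNSD1, a gene with an asparagine synthetase domain, had a log2 fold change of -0.91 (SE 0.37) with RSL3 and missed the threshold (limma adjusted p = 0.0503), while it passed with the replicate block (limma adjusted p = 0.00699). It was at -0.075 with the GC and length trend removed. EIF2AK2, the double-stranded RNA kinase PKR that phosphorylates eIF2α and is itself induced by interferon, had 4523, 4125 and 4502 reads in oeATOH8 libraries, against 11919, 11810.0 and 12371 in oeCTRL libraries. It fell by 1.49 (SE 0.054, edgeR adjusted p = 8.54e-10) while PPP1R15A, which reverses that phosphorylation, was higher, and it stood at -0.11 with the GC and length trend removed.

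**Figure D4:**
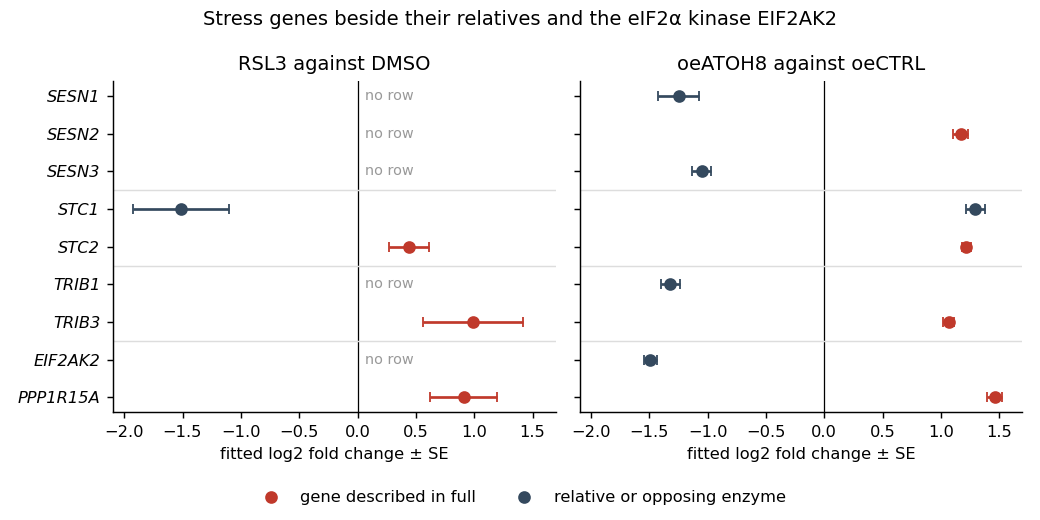
Fitted log2 fold changes ± SE (horizontal axes) of 4 of the stress genes (red) and of their relatives and the kinase EIF2AK2 (dark), for RSL3 against DMSO on the left and oeATOH8 against oeCTRL on the right. In the right panel SESN2 is at 1.17 with SESN1 and SESN3 left of 0, and TRIB3 is at 1.06 with TRIB1 left of 0, although SESN3 is at 0.37 with the GC and length trend removed. STC1 and STC2 are both right of 0 there, while with RSL3 STC1 is at -1.51 and STC2 at 0.44 (-0.029 with libraries scaled to listed totals).

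For the genes listed in both tables the values stand side by side as follows. The log2 fold change of TRIB3 was 0.99 with RSL3 and 1.06 with oeATOH8, that of PPP1R15A was 0.91 and 1.46, and that of STC2 was 0.44 and 1.22. The 2 comparisons share no library, and the difference between them was not tested. The smallest log2 ratio of means among higher genes was 0.34 in the RSL3 table and 1.00 in the oeATOH8 table. The median fitted log2 fold changes of the higher genes were 0.76 and 1.24. No higher gene of the oeATOH8 table lay below 1.00, so the values do not compare the sizes of the 2 responses. ATOH8 itself had 358, 429 and 470 normalised reads in RSL3 libraries, against 26.4, 35.1 and 40.1 in DMSO libraries, a ratio of means of 12.4. Its part in the RSL3 values was not tested. Of the 248 named genes with a row in both tables, 78 were higher in both, 121 lower in both, 33 higher with RSL3 and lower with oeATOH8, and 16 the reverse. The 3 stress genes were among the 78, as were EIF4EBP1, SLC43A1 and CEBPB.

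The genes with the nearest profile to each of the 6 were sought by the root mean square difference of log2(value + 1) over the 6 libraries of a table, after each gene was centred on its own mean. Among 1373 named genes of the RSL3 table with a mean of at least 50, NUPR1 was nearest to the ATP receptor gene P2RX6 (0.889), the haem oxygenase gene HMOX1 (1.03) and COXFA4L2 (1.09). HMOX1 had 10854, 3239.9 and 3458 normalised reads in RSL3 libraries, against 2185, 742 and 763 in DMSO libraries. NUPR1 was farther from the other 4 stress genes, at 1.58 from TRIB3 to 1.98 from STC2. TRIB3 was nearest to SLC1A5 (0.0754), the cytochrome gene CYP1A1 (0.104) and SLC6A9 (0.110). SLC1A5 and SLC6A9 are amino acid carriers of the ATF4 list. PPP1R15A, ASNS, STC2 and NUPR1 ranked 42, 483, 631 and 1277 in nearness to TRIB3. RSL3 replicate 1 of TRIB3 was far above its other libraries, which weighs on these distances. STC2 was nearest to ZSCAN18 (0.0285), WARS1 (0.0473) and GRPEL1 (0.0489), and PPP1R15A to PRRT4 (0.0593), NIPBL-DT (0.103) and the sphingosine kinase gene SPHK1 (0.103). After CZ1P-ASNS (0.0356), ASNS was nearest to the placental alkaline phosphatase gene ALPP (0.167) and to SHANK1 (0.192).

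Among 1045 such genes of the oeATOH8 table, TRIB3 was nearest to the urokinase gene PLAU (0.0270), PHC2 (0.0326) and SH2D5 (0.0342), and STC2 to the transcription factor gene ETS1 (0.0231), MYEOV (0.0302) and the cytokine gene LIF (0.0357). PPP1R15A was nearest to CCN1 (0.0558), MYC (0.0571) and FPGS (0.0579), and SESN2 to RRP12 (0.0327), S100A16 (0.0359) and ARMC6 (0.0434). The 4 stress genes lay 0.0560 (TRIB3 and SESN2) to 0.228 (TRIB3 and PPP1R15A) apart. Replicates differed little for the 4 stress genes, so these distances rest mostly on the size of the difference between the groups.

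Some markers of the line and of other cells were listed in both comparisons, and their part in the values above was not tested. Of 6 epithelial markers, EPCAM and CDH1 were in the RSL3 table, with summed levels of 99.9 to 308 in RSL3 libraries and 701 to 908 in DMSO libraries. KRT8 and CDH1 were in the oeATOH8 table, with 5980.3 to 6704 in oeATOH8 libraries and 17134 to 17482 in oeCTRL libraries. Of 9 markers of blood, immune, endothelial and fibroblast cells, CD68 alone was in the RSL3 table (1498 to 4290 in RSL3 libraries and 787 to 1607 in DMSO libraries). The groups overlapped for CD68, and it missed the threshold (limma adjusted p = 0.0538). COL1A2, HBA1 and HBB were in the oeATOH8 table, summing to 2474 to 40541 in oeATOH8 libraries and 1.94 to 7.20 in oeCTRL libraries, where HBB had 0 reads in each. The oeATOH8 libraries differed widely here, with 17402, 927 and 4008 reads of HBA1 and 24191, 1411 and 5593 of HBB in replicates 1, 2 and 3. The labelled cell type could be checked only on these few genes.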

How the data were processed

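RNA of 12 DU145 libraries, 3 in each of 4 groups, was measured by RNA-seq. Fastp, HISAT2, StringTie and DESeq2 and the build hg38 (GRCh38) are named in the submitters' processing notes without roles or versions, and strandedness is not given. The deposited RSL3 table holds a signal per gene, identified by position and strand. Each library's values were whole multiples of one step (100% within 0.001 of a whole number), as reads divided by a size factor are, so whole reads were recovered. The ATOH8 table was deposited with whole read counts for each gene, where OE heads the oeATOH8 columns and NC the oeCTRL columns. Both list only genes that the authors called, so every p here is within called genes. Depth beyond the listed genes is unknown, and p-values measure the spread between libraries, which may be technical.

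RSL3 rows were named by an overlap of at least 0.5 of the longer span with RefSeq (1044 with the same span, 697 overlapping), then GENCODE (34), and 35 stayed unnamed. Of 1152 Ensembl identifiers 1146 had a symbol, and 272 rows were loci assembled by the authors.

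The RSL3 test was limma 3.58.1 with a trended variance, run on log2(value + 1) once filterByExpr (minimum count 10, minimum total 15) had left 1732 genes. For the ATOH8 counts it was the quasi-likelihood test of edgeR 4.0.16. Scaling was by median ratios within a group, and groups so that the empty gap in log2 ratios (-0.97 to 1.03) was centred on 0. This takes the authors' fold limits as symmetric. The SE of an edgeR value is the log2 fold change over the square root of F. DESeq2 (version 1.42.0), edgeR on recovered reads, limma on scaled counts, other scalings, pseudocounts, filters and omitted libraries were alternatives, under R 4.3.3. All p-values are two-sided and Benjamini-Hochberg adjusted over listed genes, and the code was tested on simulated data.

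Libraries with the same number deviated together from their group means in the RSL3 table (correlations of 0.68, 0.61 and 0.61), so the numbers were taken to pair them. The reported RSL3 fit did not use this pairing, and a fit with the replicate number as a block was run beside it. RSL3 replicate 2 correlated as much with DMSO replicate 3 (0.63), so the pairing separates replicate 1 from the others. In the ATOH8 table the correlations were 0.041, 0.053 and 0.074, and the numbers were not taken as pairs. The genes and lists were chosen with earlier results of these data known. The named genes were the 6 described, every gene of the lists with a row, 3 nearest profiles for each gene and ATOH8. GC content and length came from the longest GENCODE 29 transcript.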

Additional observations from a re-analysis of the deposited data

How the results depend on the processing

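The calls with RSL3 depended on scaling, on composition and on single libraries. With RSL3, 1421 genes passed (747 higher and 674 lower). Scaling to listed totals gave 636 (154 higher and 482 lower) and TMM scaling 926 (278 and 648), and the median log2 fold change of all tested genes was then 0.038 and 0.22, from 0.51. With the GC and length trend removed, a setting chosen after seeing the data, 664 passed (342 and 322). Leaving out 1 library gave 6 (without DMSO replicate 2) to 1445 (without DMSO replicate 1), with 8, 310.0 and 330.0 without DMSO replicate 3, RSL3 replicate 3 and RSL3 replicate 2. For the 51 other ATF4 list genes, 12 passed as reported, 2 with listed totals, 6 with TMM scaling, 6 with the GC and length trend removed, 19 with DESeq2, 19 with the replicate block and 19 in replicates 2 and 3 alone. Leaving out 1 library gave 0 to 15. Over all tested genes the counts were 1727 with DESeq2, 1720 with the replicate block and 1713 in replicates 2 and 3 alone. Replicates 2 and 3 differed by little more than counting error (chi-square over degrees of freedom of 1.80 in RSL3 and 1.64 in DMSO). The counts from them alone therefore say little about spread between replicates. The STC2 log2 fold change with RSL3 was -0.029 with listed totals, from 0.44. Omitting 1 RSL3 library moved the NUPR1 log2 fold change to between 3.04 and 4.41 and that of TRIB3 to between 0.44 and 1.28. In the oeATOH8 table the calls split into 589 higher and 418 lower with relative log expression scaling, from 589 and 835, with the median of all genes at -0.19, from -1.10, and at -1.56 and -0.80 with listed totals and TMM scaling. The replicate block changed no call there (1424 and 3 genes), and its numbers share only a label. The cause of these shifts was not tested. Low reads limit NUPR1 in DMSO, with 13 to 38 reads a library.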

Other observations

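ETS1, an oncogenic transcription factor and the gene nearest to STC2 in the oeATOH8 table, had 14326, 13568 and 14510 reads in oeATOH8 libraries, against 5903, 5628 and 5927 in oeCTRL libraries. In the RSL3 table ETS1 had 187, 514 and 495 normalised reads in RSL3 libraries, against 342, 1225 and 1181 in DMSO libraries, with overlapping groups. RRP12, a ribosome assembly factor and the gene nearest to SESN2, was higher in both, at 2.18-fold with oeATOH8 and 1.84-fold with RSL3. These genes were chosen after their values were seen.

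Of the ATF4 list, 45 genes had a promoter in the RefSeq table, and 10 of them (22.2%) held TGATGNAA in the 250 bases before an annotated start, ASNS, SLC1A5 and AARS1 among them. The list was made of known targets, so this share is a description of the list.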
